A study of Acomys cahirinus and Mus musculus with 24 samples.

Results

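The comparison described here set 4 libraries of day 7 dorsal skin wounds of the spiny mouse, Acomys cahirinus, against 4 libraries of day 7 wounds of the house mouse, Mus musculus of the outbred CD-1 background. These 8 libraries were chosen by their labels, species and day, out of 24 in the series. All animals were adults. Each wound was an 8 mm full-thickness excision of the dorsal skin, and no treatment other than wounding is named. Unwounded dorsal skin of the same species (4 Acomys and 3 Mus libraries, day 0) served as a reference. Whether each library came from its own animal is not stated, and p-values then reflect only how these libraries vary, in part perhaps for technical reasons. The tissue was whole excised skin and wound, so fewer cells of a type and less RNA per cell cannot be told apart.

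Skin wounds close in overlapping phases. Neutrophils and then macrophages clear the wound, keratinocytes migrate in from its edge, and fibroblasts fill the bed with a provisional matrix that is later replaced by collagen. In the house mouse the end product is a scar. The spiny mouse is known for closing large skin wounds with little scar and for regrowing hair follicles, glands and other skin parts, and day 7 lies in the phase in which both species build new tissue.

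Levels were read from a table of read counts that both species share, with 1 row per gene symbol, and are given as CPM, the standard unit of counts relative to the library total, after scaling for library composition. Library totals ran from 8019905 to 9853153 counts in Acomys and from 7140381 to 9367550 in Mus. The scaling factors differed between the species, 1.145 to 1.201 in Acomys against 0.7833 to 0.8217 in Mus. How reads of 2 species were brought onto 1 set of genes is not given in the sources used here, so for any single gene a difference in level and a difference in how well its reads were assigned cannot be told apart. CPM is not divided by gene length, so levels are compared between libraries and not between genes. A log2 difference is Acomys minus Mus with its standard error (SE, n = 4 libraries per species at day 7), so that a negative value is a lower level in Acomys. P-values are from edgeR's quasi-likelihood test with Benjamini-Hochberg adjustment over all genes, and a gene is called higher or lower where its adjusted p is under 0.05. Of 14388 genes tested at day 7, 35.4% were higher in Acomys (5091 genes) and 35.2% were lower (5068 genes), and these shares are the background for every list that follows. The 4 Acomys and 4 Mus values did not overlap for 32% of the genes on the higher side and for 31.2% on the lower side. The median log2 difference over all genes was -0.00445, and 2535 higher and 2416 lower genes differed by more than 1 on the log2 scale. The scaling assumes that most genes do not differ, so this median and the even split follow in part from it.

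All 8 libraries carried defining transcripts of skin, although the keratin Krt5 was low in Acomys, as given with the epidermal genes. Krt14, a keratin of basal keratinocytes, stood at 3019, 3020, 2384 and 2611 CPM in Acomys replicates 1 to 4 and at 4967, 6118, 8565 and 4840 CPM in Mus replicates 1 to 4. Col1a2, a chain of type I collagen made by fibroblasts, lay between 7674 and 21810 CPM over the 8 libraries. Transcripts of skeletal muscle were present in 7 libraries but nearly absent from Mus replicate 3: the summed level of 38 adult muscle genes was 6953, 2915, 2404 and 4237 CPM in Acomys and 8956, 12430, 504 and 8202 CPM in Mus. Transcripts of the growing hair follicle were uneven among the Mus wounds too, as given with the follicle genes.

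Most genes that differed at day 7 differed in the same direction before wounding. In unwounded skin 33.9% of genes were higher in Acomys and 31.4% lower. These day 0 libraries entered the day 7 test only through the shared estimate of spread, the scaling of the libraries and the choice of rows. Of the 5091 genes higher at day 7, 3395 were also higher in unwounded skin, which is 66.7% of the day 7 list and 69.6% of the day 0 list. Of the 5068 lower genes, 3131 were lower in both, 61.8% of the day 7 list and 69.2% of the day 0 list. Genes that were higher on one day and lower on the other numbered 335 (higher at day 7) and 424 (lower at day 7). When the difference at day 7 was itself tested against the difference at day 0, 17.3% of genes had a more positive and 18.9% a more negative value in the wound. For this reason the value in unwounded skin is given with many of the genes below. A gene given without it may have differed in skin as well. The test between the days treated all libraries as separate, although replicate numbers recur between the days within each species.

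The 12 well-counted genes with the widest gaps at day 7 all differed in the same direction in unwounded skin. Among genes with at least 10 counts in each of the 8 libraries, the 6 highest in Acomys were Taf4a, Pura, Rnf217, Ranbp9, Tcfl5 and Xpnpep2. Taf4a, a subunit of the general transcription factor TFIID, stood at 4643, 3256, 3102 and 3198 CPM in Acomys and 18.6, 18.9, 18.7 and 20.1 CPM in Mus (log2 difference 7.54 ± 0.18, adjusted p = 7.77e-19), and at 7.07 on the log2 scale in unwounded skin. Pura, a nucleic acid binding protein, differed by 7.31 at day 7 and 6.49 at day 0. Rnf217, an E3 ubiquitin ligase, differed by 7.22 and 5.84, and Ranbp9, a scaffold protein, by 6.39 and 7.01. Tcfl5, a transcription factor best known from testis, differed by 5.44 and 7.36, and the aminopeptidase Xpnpep2 by 5.43 and 2.58. The 6 lowest in Acomys were Rn7sk, Krt17, Rps3a1, Lyz2, Krt16 and Rps10. Rn7sk, the 7SK small nuclear RNA (GRCm38, chromosome 9, 78175303 to 78175633), held 23842, 21670, 20825 and 22005 CPM in the Mus wounds and 2.96, 3.63, 2.76 and 3.51 CPM in the Acomys wounds, and its log2 difference was -12.74 in the wound against -12.99 in skin. The ribosomal protein genes Rps3a1 and Rps10 were lower (-8.65 and -7.60), with -9.15 and -7.50 in skin. Ribosomal protein genes have many processed copies, and counts of such genes are uncertain where reads could be split among copies. The gap of Krt16 was wider in the wound (-8.12) than in skin (-1.53), by -6.58 (adjusted p = 2.56e-07). The separate tables of the 2 species, in which the rows were made apart, gave log2 ratios of 8.55 for Taf4a, 9.60 for Rnf217, 7.196 for Ranbp9, -11.35 for Rn7sk, -7.33 for Rps3a1 and -6.60 for Rps10.

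**Figure D1:**
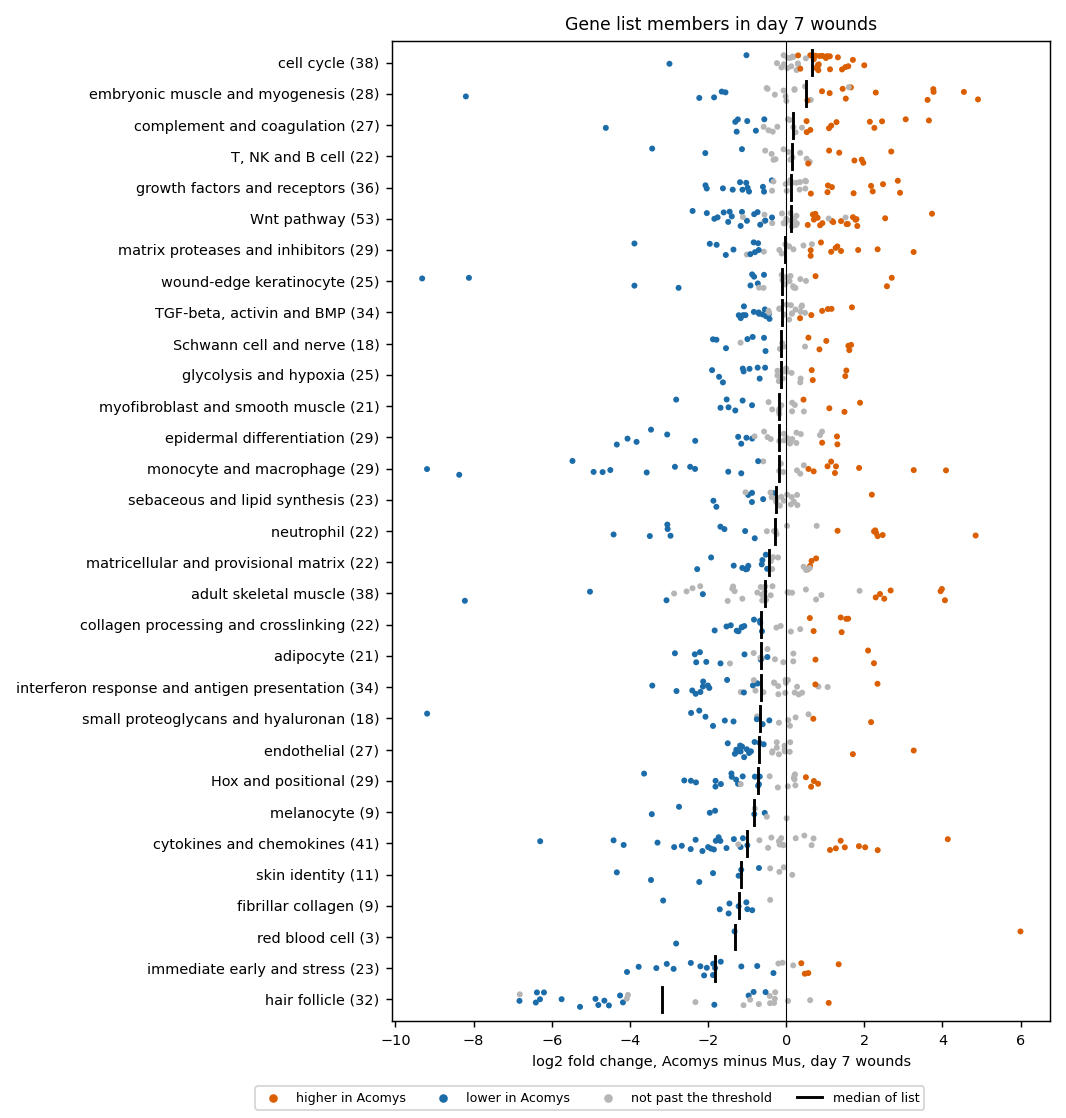
Members of the 31 gene lists, with the number tested in brackets. Each point is 1 gene at its log2 difference between Acomys and Mus day 7 wounds, coloured by whether it passed an adjusted p of 0.05, and black bars are list medians. Cell cycle has the highest median (0.66) and hair follicle the lowest (-3.18).

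Fibrillar collagens, the rope-like collagens that carry the load of skin and scar, were lower in the Acomys wound. Of 9 tested genes none was higher and 8 were lower, against a background of 35.2% lower, with a median of -1.22. Col3a1, the collagen that dominates early granulation tissue, stood at 15603, 14028, 15852 and 12620 CPM in Acomys and 42831, 41706, 52298 and 51877 CPM in Mus (log2 difference -1.70 ± 0.24, adjusted p = 1.66e-06), 3.25-fold lower with no overlap between the species. Col1a2 was 2.32-fold lower, at 10127, 8125, 7800 and 7674 CPM against 18749, 21810, 18652 and 19180 CPM (log2 difference -1.22 ± 0.26, adjusted p = 0.000284). Col1a1, the other chain of type I collagen, was the member that did not pass: 10461, 7698, 7349 and 7177 CPM in Acomys and 11715, 13747, 8071 and 9885 CPM in Mus overlapped (log2 difference -0.41 ± 0.32, adjusted p = 0.262). For the abundant chains the gap was already present before wounding. The day 0 values were -1.56 for Col1a1, -2.51 for Col1a2 and -2.28 for Col3a1, and for Col1a2 the gap in the wound was smaller than in skin by 1.30 (adjusted p = 0.0103). Col11a1, a minor fibril chain that sets fibril diameter, had a gap in the wound that it did not have in skin past the threshold. It stood at like levels in skin (means of 6.42 and 4.58 CPM) and stood at 13.5, 8.32, 9.62 and 13.9 CPM in Acomys wounds against 137, 136, 47.6 and 81.5 CPM in Mus wounds (log2 difference -3.15 ± 0.34, adjusted p = 8e-08).

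Genes that trim, modify and crosslink collagen included both higher and lower members. In this list 6 of 22 tested members (27.3%) were higher in Acomys, 12 (54.5%) were lower and 4 did not pass. Bmp1, an enzyme that cuts procollagen at its C-terminal end, and its enhancer Pcolce were lower (-1.83 and -1.53). Bmp1 stood at 198, 161, 197 and 152 CPM against 531, 655, 676 and 655 CPM. Both Bmp1 and Pcolce were lower in skin too (-2.09 and -3.21). Lox, which starts crosslinking, was 1.54-fold lower (log2 difference -0.62 ± 0.17, adjusted p = 0.00313), a smaller gap than in unwounded skin (-3.04). Higher in Acomys were Loxl4 at 92.8, 87, 64.5 and 72.7 CPM against 29, 23.9, 29.5 and 22.9 CPM (log2 difference 1.59 ± 0.21, adjusted p = 6.68e-07), the N-terminal procollagen protease Adamts3 (log2 difference 1.54 ± 0.36, adjusted p = 0.000755) and Plod2, the lysyl hydroxylase of the telopeptides (log2 difference 1.42 ± 0.32, adjusted p = 0.000546). Adamts3 and Plod2 were higher in skin too (1.57 and 1.75), while Loxl4 did not differ there past the threshold (-0.20). Across the list 12 members had a more positive and 2 a more negative difference at day 7 than in unwounded skin, where the background was 17.3% and 18.9%.

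Among matricellular proteins, which are secreted into the matrix and signal to cells, the direction depended on the gene. Here 4 of 22 tested members (18.2%) were higher in Acomys, 11 (50%) were lower and 7 did not pass. Tenascin C (Tnc), a large glycoprotein of healing and regenerating tissue, was 1 of the higher genes, at 6697, 5600, 7712 and 5451 CPM in Acomys and 3930, 4438, 3345 and 4510 CPM in Mus. The 4 Acomys libraries all lay above the 4 Mus libraries, by 1.57-fold (log2 difference 0.65 ± 0.26, adjusted p = 0.0332), while in skin the means were 36.4 and 44 CPM. That call was close to the threshold: adjusted p = 0.0611 to 0.0961 without Acomys replicate 1 or 3 or Mus replicate 1 or 3. Periostin (Postn), which helps collagen assembly, was at 5914, 4787, 10249 and 5909 CPM against 3326, 6621, 3971 and 4407 CPM with overlap (log2 difference 0.55 ± 0.22, adjusted p = 0.0277), and its call was lost in the same way (adjusted p = 0.0571 to 0.222 without Acomys replicate 3 or Mus replicate 1, 3 or 4, and 0.0899 with only the 8 day 7 libraries). Fibronectin (Fn1), the main provisional matrix protein, did not pass (log2 difference 0.45 ± 0.25, adjusted p = 0.122). It passed as higher with only the 8 day 7 libraries (adjusted p = 0.0486). In skin it was lower in Acomys (-1.56) and the shift between the days was 2.01 (adjusted p = 0.000265). Col12a1, a collagen that lies on fibril surfaces, went the other way: 3856, 2832, 3318 and 2625 CPM against 5819, 8974, 4995 and 6036 CPM, 2.04-fold lower (log2 difference -1.03 ± 0.23, adjusted p = 0.000447). In skin it was higher (1.003). Osteopontin (Spp1), a matrix and macrophage product, was 4.85-fold lower at 165, 101, 277 and 154 CPM against 964, 1301, 573 and 543 CPM (log2 difference -2.28 ± 0.56, adjusted p = 0.00143). Cyr61, a target of the YAP pathway, was lower (-1.92), with Mus replicate 1 far above its group at 424 CPM and a log2 difference of -1.16 without it (adjusted p = 0.0209). Ecm1 was higher by 0.77. The count of 4 higher matricellular genes dropped to 2 without Acomys replicate 3, Mus replicate 1 or Mus replicate 3.

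Small leucine-rich proteoglycans, which coat collagen fibrils and set their spacing, were listed with hyaluronan genes. In this list 2 of 18 tested members (11.1%) were higher in Acomys, 10 (55.6%) were lower and 6 did not pass, with a median of -0.68 (day 0: -1.16). Lumican (Lum) stood at 137, 117, 119 and 134 CPM in Acomys and 497, 562, 631 and 676 CPM in Mus (log2 difference -2.22 ± 0.19, adjusted p = 1.2e-09; log2 ratio -3.22 in the separate tables). Osteoglycin (Ogn) stood at 47.5, 43.8, 34.3 and 52.8 against 236, 329.5, 169.9 and 229 CPM (log2 difference -2.43 ± 0.24, adjusted p = 1.1e-08). For lumican the difference between the days did not pass (-2.80 in skin), whereas that of osteoglycin was larger in the wound (-1.62, adjusted p = 0.000712). Keratocan (Kera) had no count in any Acomys day 7 library and 13.5, 9.62, 5.96 and 5.98 CPM in Mus, at least 120-fold lower with 3 counts over the group as the floor (log2 ratio -6.35 in the separate tables). Fibromodulin (Fmod), which binds collagen and TGF-beta, was 1 of the higher genes, at 114, 83.2, 60.7 and 92.1 CPM against 35.2, 23.4, 4.06 and 14.8 CPM, 4.51-fold higher (log2 difference 2.17 ± 0.49, adjusted p = 0.000619). The hyaluronidase Hyal2 was higher by 0.69.

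**Figure D2:**
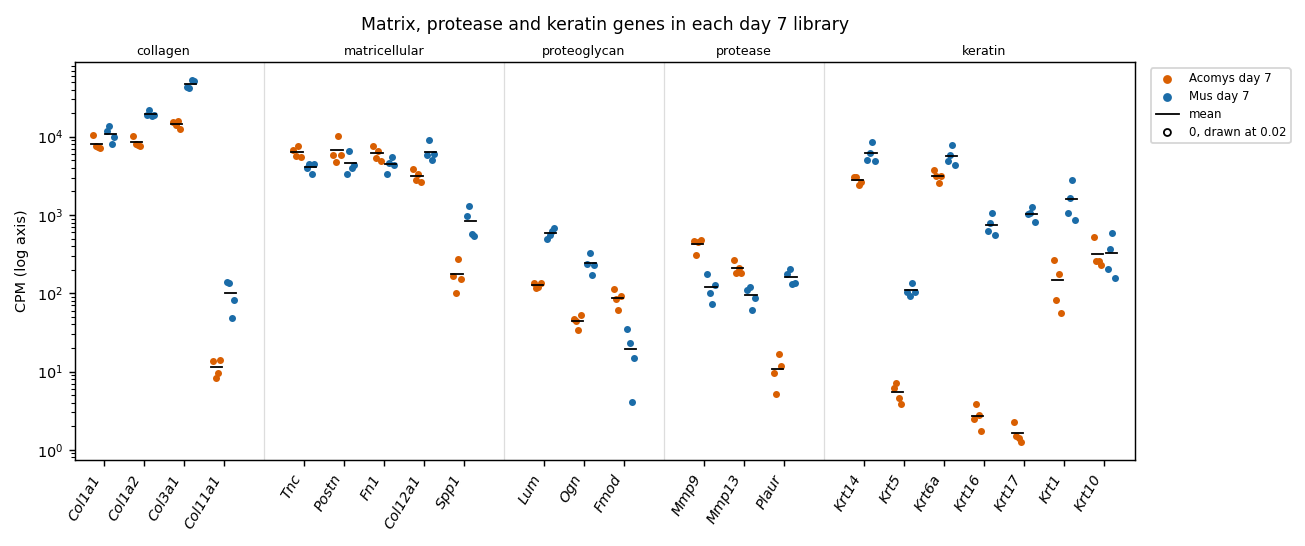
CPM (log axis) of matrix, protease and keratin genes in each of the 4 Acomys and 4 Mus day 7 libraries; bars are means. The 4 Tnc values lie higher in Acomys, all Col3a1 values lie lower, and Krt16 and Krt17 stay under 4 CPM in every Acomys library.

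Proteases that cut matrix, and their inhibitors, were called higher or lower about as often as all genes (35.4% higher and 35.2% lower). In this list 10 of 29 tested members (34.5%) were higher in Acomys, 10 (34.5%) were lower and 9 did not pass. Mmp9, the gelatinase of leukocytes and migrating keratinocytes, stood at 469, 308, 454 and 483 CPM in Acomys and 174, 101, 73.4 and 129 CPM in Mus, 3.59-fold higher with no overlap (log2 difference 1.84 ± 0.41, adjusted p = 0.000483). The neutrophil collagenase Mmp8 was 5.07-fold higher (log2 difference 2.34 ± 0.35, adjusted p = 4.98e-06), a much smaller gap than in skin, where means were 62.5 and 0.501 CPM. Mmp13, the collagenase of fibroblasts and keratinocytes, was at 269, 184, 209 and 179 CPM against 111, 119, 61.2 and 87.8 CPM (log2 difference 1.15 ± 0.45, adjusted p = 0.0276; adjusted p = 0.0586 to 0.0797 without Acomys replicate 1 or Mus replicate 3 or 4). Lower in Acomys were Plaur, the receptor that focuses urokinase on the cell surface (9.49, 5.23, 16.9 and 11.9 CPM against 177, 205, 131 and 134 CPM, log2 difference -3.88 ± 0.28, adjusted p = 1.5e-10), and Adam12, a metalloprotease of activated mesenchyme (log2 difference -1.96 ± 0.24, adjusted p = 3.67e-07). Plaur was lower in skin too (-3.36), and Adam12 did not differ there past the threshold (-0.26). Timp1, the chief inhibitor of these enzymes, did not pass (log2 difference 0.44 ± 0.20, adjusted p = 0.0583); it did pass as higher by DESeq2 (adjusted p = 0.0428), without small structural RNAs (0.048), and without Acomys replicate 1 (0.0234) or Mus replicate 3 (0.022).

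The contractile programme of myofibroblasts, the cells that pull a wound shut, included both higher and lower genes. In that list 4 of 21 tested members (19%) were higher in Acomys, 7 (33.3%) were lower and 10 did not pass. Smooth muscle actin (Acta2), their defining marker, overlapped between the species at 265, 314, 456 and 357 CPM and 279, 451, 226 and 238 CPM (log2 difference 0.22 ± 0.21, adjusted p = 0.345), and passed as higher in 1 alternative (adjusted p = 0.0237 without Mus replicate 2). Tagln was 2.81-fold higher (log2 difference 1.49 ± 0.23, adjusted p = 6.75e-06) and calponin (Cnn1) 3.71-fold higher (log2 difference 1.89 ± 0.22, adjusted p = 1.64e-07), with like differences in skin (1.49 and 2.03). Tropomyosin 1 (Tpm1, log2 difference -1.68 ± 0.30, adjusted p = 5.41e-05) and N-cadherin (Cdh2, log2 difference -1.52 ± 0.20, adjusted p = 5.62e-07) were lower.

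The TGF-beta family, which drives fibroblasts to make matrix, is covered by ligands, receptors and modulators. In this list 6 of 34 tested members (17.6%) were higher in Acomys, 13 (38.2%) were lower and 15 did not pass. Tgfb1, the ligand most tied to scarring, stood at 39.8, 30.8, 35.3 and 39.1 CPM in Acomys and 56.9, 62.7, 44.1 and 43.6 CPM in Mus, 1.43-fold lower without overlap (log2 difference -0.52 ± 0.21, adjusted p = 0.0344; adjusted p = 0.0652 to 0.111 without Acomys replicate 2 or 3 or Mus replicate 1 or 2). In skin Tgfb1 was higher in Acomys (0.73), and the change of sign passed its own test (-1.25, adjusted p = 0.00656). Tgfb3, the ligand linked to fetal healing, did not pass (log2 difference -0.045 ± 0.21, adjusted p = 0.859). Among receptors and modulators the activin receptor Acvr2a was lower (log2 difference -1.16 ± 0.08, adjusted p = 8.52e-11), and Tgfbr1, Tgfbr2, Tgfbr3 and Smad3 were lower (-0.43, -0.60, -1.10 and -0.83). The latent binding protein Ltbp2 was lower (log2 difference -1.21 ± 0.42, adjusted p = 0.0154), but Mus replicate 1 alone held 174.5 CPM of it and the call was lost without that library (adjusted p = 0.29) and with only the 8 day 7 libraries (0.0697). On the BMP side Bmp7 was 2.24-fold higher (log2 difference 1.16 ± 0.20, adjusted p = 2.63e-05; 2.15 in the separate tables) and its target Id3 was 3.21-fold higher at 53.6, 55.4, 96.2 and 69.7 CPM against 26.2, 19.4, 18.3 and 21.6 CPM (log2 difference 1.68 ± 0.21, adjusted p = 3.31e-07).

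In the Wnt pathway, which directs follicle formation and stem cell fate, 18 of 53 tested members (34%) were higher in Acomys, 16 (30.2%) were lower and 19 did not pass, beside a background of 35.4% and 35.2%. Ligands were led by Wnt2, at 56.7, 119, 70.3 and 72.4 CPM in Acomys and 1.79, 2.08, 9.07 and 11.3 CPM in Mus, 13.3-fold higher (log2 difference 3.73 ± 0.37, adjusted p = 2.01e-08); its means in skin were 2.33 and 2.81 CPM, and the shift between the days was 4.00 (adjusted p = 7.74e-05). Wnt4, Wnt6, Wnt7b, Wnt10b, Wnt11 and Wnt16 were higher by 1.17, 1.82, 0.68, 1.58, 1.40 and 0.87, and Wnt9a was lower (-1.45). Wnt5a, the main non-canonical ligand, was lower (log2 difference -0.53 ± 0.19, adjusted p = 0.0181; adjusted p = 0.0565 to 0.0636 without Acomys replicate 2 or 4 or Mus replicate 2). Of 9 frizzled receptors with a value, Fzd1, Fzd2, Fzd4, Fzd5, Fzd6, Fzd7 and Fzd8 were lower, led by Fzd5 at 9.29, 6.4, 6.06 and 7.51 CPM against 27.2, 41.5, 23.7 and 27.5 CPM (log2 difference -2.03 ± 0.18, adjusted p = 2.32e-09), while Fzd3 was higher (0.80) and Fzd10 did not pass. Of the nuclear partners of beta-catenin, Tcf7 and Lef1 were higher. Tcf7 stood at 13, 12.5, 12.9 and 10.6 CPM against 2.89, 2.08, 1.35 and 2.11 CPM (log2 difference 2.53 ± 0.18, adjusted p = 6.76e-11). Lef1 stood at 4.55, 4.48, 5.43 and 4.98 CPM against 1.24, 2.56, 0.947 and 1.23 CPM (log2 difference 1.71 ± 0.38, adjusted p = 0.000365). Tcf7 was higher in skin too (1.30), and Lef1 did not differ there past the threshold (-0.30). The feedback targets Axin2 (log2 difference 0.93 ± 0.13, adjusted p = 1.13e-06) and Nkd1 (log2 difference 1.80 ± 0.23, adjusted p = 6.42e-07) were higher as well, although both were lower in skin (-0.70 and -0.56). Sfrp2, a secreted antagonist, did not pass in the full set (log2 difference -0.56 ± 0.27, adjusted p = 0.0759), and it did pass as lower when Acomys replicate 2 (adjusted p = 0.0148) or Mus replicate 2 (0.0485) was left out. The stem cell receptor Lgr5 was lower (log2 difference -1.84 ± 0.34, adjusted p = 7.35e-05; -1.14 in the separate tables), with Mus replicate 2 far above the other Mus libraries (9.62, 29.3, 12.9 and 10.2 CPM). Lef1, Axin2 and Nkd1, like the other Wnt genes without an SE, were singled out after their values were seen.

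Among growth factor genes 10 of 36 tested members (27.8%) were higher in Acomys, 12 (33.3%) were lower and 14 did not pass. Of 8 receptors in the list 5 were lower and none was higher, while 9 ligands were higher and 5 were lower. Over all genes 35.4% were higher and 35.2% lower, and the split by ligand and receptor was not tested. Igfbp5, a binding protein that stores insulin-like growth factors in the matrix, stood at 1325, 1526, 1121 and 1174 CPM in Acomys and 103, 225, 199 and 184 CPM in Mus, 7.25-fold higher (log2 difference 2.86 ± 0.25, adjusted p = 1.95e-09). In skin it did not differ past the threshold (-0.47, adjusted p = 0.1). The ligand Igf2 was 4.51-fold higher (log2 difference 2.17 ± 0.49, adjusted p = 0.000647), Fgf2 was 5.57-fold higher (log2 difference 2.48 ± 0.39, adjusted p = 8.32e-06; 4.28 in the separate tables) and the EGF family ligand Btc was 4.64-fold higher (log2 difference 2.21 ± 0.32, adjusted p = 3.43e-06). Of the receptors, Igf1r stood at 82, 63.5, 55.6 and 60.4 CPM against 297, 326, 207 and 263 CPM (log2 difference -2.06 ± 0.19, adjusted p = 2.85e-09) and Egfr at 101, 74.2, 63.3 and 58.8 against 296, 318, 320.2 and 283 CPM (log2 difference -2.03 ± 0.15, adjusted p = 9.32e-11). Both receptors were lower in skin too, by less (-0.71 and -1.19). Igf2 and Btc were higher in skin too (2.80 and 0.98), while Fgf2 did not differ there past the threshold (-0.09). Igf2, Fgf2 and the split by ligand and receptor were singled out after their values were seen.

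Neutrophil genes differed widely in both directions. In this list 7 of 22 tested members (31.8%) were higher in Acomys, 9 (40.9%) were lower and 6 did not pass, beside 35.4% and 35.2% of all genes. The G-CSF receptor Csf3r, which neutrophils need to mature, stood at 23.5, 28.6, 44.3 and 30.1 CPM in Acomys and 419, 117, 206 and 294 CPM in Mus, 8.19-fold lower (log2 difference -3.03 ± 0.29, adjusted p = 1.04e-08), and its means in skin were close (5.91 and 5.19 CPM). The chemokine receptor Cxcr2 was 7.78-fold lower (log2 difference -2.96 ± 0.25, adjusted p = 1.08e-09) and the lectin Clec4e 21.4-fold lower (log2 difference -4.42 ± 0.43, adjusted p = 2.26e-08). The products of S100a8 and S100a9 pair to form calprotectin. S100a8 was at 1780, 1549, 1016 and 1310 CPM against 1178, 456, 729 and 929 CPM and did not pass (log2 difference 0.78 ± 0.41, adjusted p = 0.0964). It passed as higher with only the 8 day 7 libraries (adjusted p = 0.029). S100a9 was lower, at 162, 119, 74.9 and 99 CPM against 1951, 752, 1019 and 1381 CPM (log2 difference -3.49 ± 0.50, adjusted p = 4.05e-06). Several granule genes were higher: lipocalin 2 (Lcn2) at 136, 241, 132 and 171 CPM against 80.9, 12.3, 11.5 and 35.2 CPM (log2 difference 2.28 ± 0.48, adjusted p = 0.000297; 3.13 without Mus replicate 1), Mmp8 as given above, and the cathelicidin Camp with 149 counts in Acomys against 3 in Mus (ratio 32.2, 95% counting interval 10.8 to 158, exact; log2 ratio 3.97 in the separate tables). Among surface receptors Fcgr4, an Fc receptor, was 4.93-fold higher (log2 difference 2.30 ± 0.36, adjusted p = 1.15e-05), and Cxcr1, a chemokine receptor, was higher by 2.47. Mus replicate 1 had the highest summed neutrophil level, 6082, 2822, 3260 and 4219 CPM over Mus replicates 1 to 4 against 2546 to 2979 CPM in Acomys, and leaving it out removed no call of the genes named here. In skin Cxcr2 was lower by more than in the wound (-4.68), and S100a9 was lower (-2.68). S100a8, Camp and Fcgr4 were higher in skin (2.20, 5.25 and 2.08), and Clec4e and Lcn2 did not differ there past the threshold. Cxcr1, Cxcr2, Lcn2 and Camp were named after their values were seen.

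Macrophage genes included some of the widest differences in each direction. In the list 9 of 29 tested members (31%) were higher in Acomys, 13 (44.8%) were lower and 7 did not pass. Arginase 1 (Arg1), an enzyme of wound macrophages that turns arginine to ornithine, stood at 10.5, 14.399, 11.4 and 16.4 CPM in Acomys and 635, 504, 715 and 479 CPM in Mus, 44.3-fold lower (log2 difference -5.47 ± 0.61, adjusted p = 2.27e-07). In skin Arg1 was higher in Acomys (means of 75 and 22.4 CPM), so its difference turned by -7.21 between the days (adjusted p = 3.69e-06). Nos2, the inducible enzyme that makes nitric oxide from the same arginine, was 22.6-fold lower at 3.06, 4.8, 2.94 and 2.83 CPM against 113, 60.6, 50.1 and 85 CPM (log2 difference -4.50 ± 0.35, adjusted p = 4.79e-10). Cd14, the co-receptor for bacterial lipopolysaccharide, was 11.9-fold lower (log2 difference -3.57 ± 0.38, adjusted p = 6.9e-08), Itgam, a myeloid integrin, 5.49-fold lower (log2 difference -2.46 ± 0.21, adjusted p = 2.06e-09), and Emr1, the F4/80 antigen, 5.04-fold lower (log2 difference -2.33 ± 0.33, adjusted p = 3.12e-06). Emr1, Cd14 and Itgam were lower in skin as well (-3.36, -2.24 and -0.54). Nos2 did not differ there past the threshold (-0.21). The scavenger receptors named here were higher. Cd163, which takes up haemoglobin, stood at 595, 693, 654 and 1105 CPM in Acomys and 36.1, 43.8, 66.9 and 31.7 CPM in Mus, 17-fold higher (log2 difference 4.09 ± 0.36, adjusted p = 5.47e-09), while in skin it was lower (-0.84). The mannose receptor Mrc1 was at 1150, 1441, 1538 and 2056 CPM against 724, 489, 826 and 517 CPM (log2 difference 1.27 ± 0.22, adjusted p = 2.58e-05), again after being lower in skin (-1.24). Lyve1, a hyaluronan receptor of lymphatic vessels and some macrophages, was at 126, 155, 105 and 129 CPM against 9.89, 16, 13.3 and 14.606 CPM (log2 difference 3.26 ± 0.22, adjusted p = 4.19e-11) with close means in skin (16.3 and 16.6 CPM). Among further markers of macrophages Csf1r did not pass (0.28) and Cd68 was lower (-1.15). Summed over the list the species overlapped, 4910 to 7293 CPM in Acomys and 5515 to 8480 CPM in Mus. Lyz2 was near absent from Acomys in wound and skin (-8.37 and -7.75; -13.73 in the separate tables); it has a close copy, Lyz1, and reads could be split between them. Nos2, Cd14 and Itgam were named after their values were seen.

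**Figure D3:**
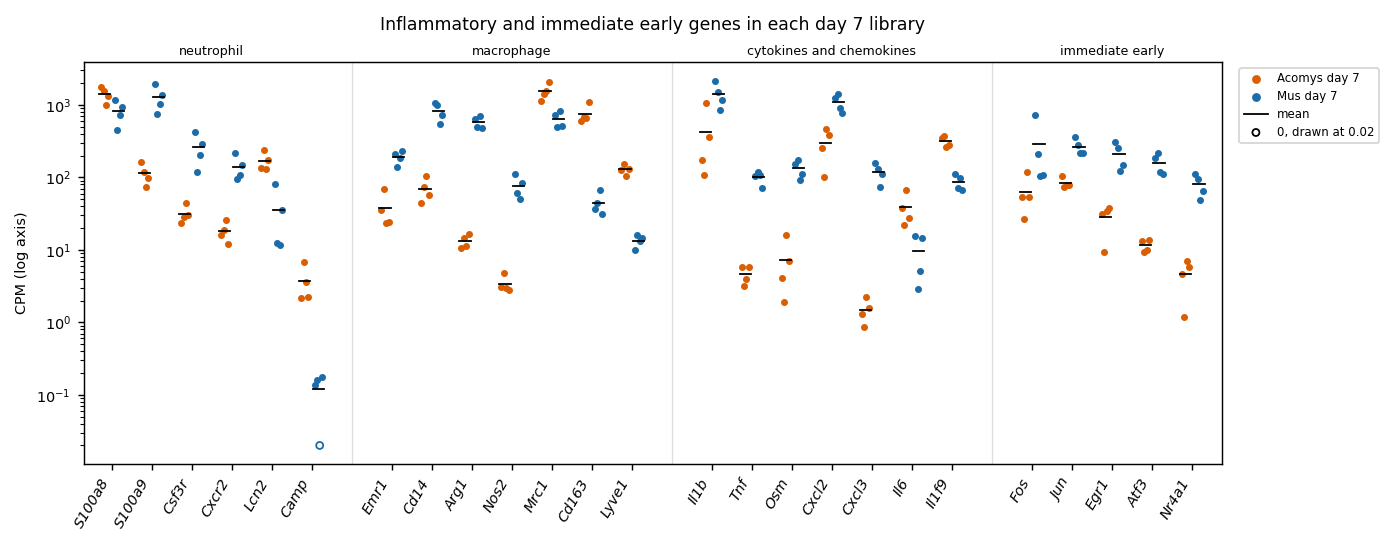
CPM (log axis) of neutrophil, macrophage, cytokine and immediate early genes in each day 7 library; bars are means and open circles are libraries at 0. Tnf, Arg1 and Nos2 sit lower in all 4 Acomys libraries, Cd163, Lyve1 and Il6 sit higher, and Il1b and Fos overlap.

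Cytokines and chemokines were more often lower than higher in Acomys. In this list 8 of 41 tested members (19.5%) were higher in Acomys, 20 (48.8%) were lower and 13 did not pass, with a median of -0.99 at day 7 and 0 in skin. Tnf, the macrophage alarm cytokine, stood at 5.83, 3.2, 3.92 and 5.86 CPM in Acomys and 106, 118, 108 and 71.4 CPM in Mus, 21.4-fold lower (log2 difference -4.42 ± 0.36, adjusted p = 1.01e-09), and in skin it did not differ past the threshold (-0.19). Oncostatin M (Osm), a cytokine of the IL-6 family, was 17.9-fold lower (log2 difference -4.16 ± 0.56, adjusted p = 2e-06; -4.90 without Acomys replicate 3). Il1b, a cytokine matured by the inflammasome, was at 176, 108, 1070 and 362 CPM against 2169, 1497, 857 and 1165 CPM (log2 difference -1.73 ± 0.64, adjusted p = 0.0227). Acomys replicate 3 overlapped the Mus range, without it the log2 difference was -2.72 (adjusted p = 0.000881), and the call was lost without several single libraries (adjusted p = 0.0541 to 0.0674 without Acomys replicate 1, 2 or 4 or Mus replicate 1) and with only the 8 day 7 libraries (adjusted p = 0.0505). Its natural antagonist Il1rn was lower as well (log2 difference -1.80 ± 0.35, adjusted p = 0.000127). The neutrophil attractant Cxcl2 was lower without overlap (256, 102, 464 and 384 CPM against 1252, 1423, 904 and 767 CPM, log2 difference -1.85 ± 0.75, adjusted p = 0.0352), a call lost in like manner (adjusted p = 0.0505 to 0.0954 without Acomys replicate 1, 2 or 4 or Mus replicate 1 or 2, and 0.0508 by DESeq2). Cxcl3 was at 1.28, 0.853, 2.23 and 1.56 CPM against 161, 130.1, 74.6 and 111 CPM (log2 difference -6.29 ± 0.51, adjusted p = 7.04e-08; -6.92 in the separate tables), and the chemokines Ccl3 (log2 difference -2.67 ± 0.68, adjusted p = 0.00222) and Ccl4 (log2 difference -3.29 ± 0.73, adjusted p = 0.000589) were lower. A smaller set was higher. Il6 stood at 37.9, 21.8, 67.9 and 27.7 CPM in Acomys and 15.5, 2.88, 5.14 and 14.8 CPM in Mus, 4.06-fold higher without overlap (log2 difference 2.02 ± 0.43, adjusted p = 0.0003). Il1f9, an epithelial interleukin of the IL-1 family, was 3.63-fold higher (log2 difference 1.86 ± 0.31, adjusted p = 2.14e-05), and Ccl20, made by keratinocytes, was at 4.25, 2.67, 5.25 and 4.68 CPM against 0.275, 0.481, 0 and 0.176 CPM (log2 difference 4.14 ± 0.81, adjusted p = 0.000117). Il1rn, Cxcl3, Ccl3, Ccl4 and Ccl20 were named after their values were seen.

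Interferon-induced and antigen presentation genes were seldom higher. In this list 2 of 34 tested members (5.88%) were higher in Acomys, 13 (38.2%) were lower and 19 did not pass. Oas1a, a sensor of double-stranded RNA, stood at 1.48, 2.77, 1.78 and 0.976 CPM in Acomys and 33.7, 9.3, 7.71 and 24.8 CPM in Mus (log2 difference -3.43 ± 0.58, adjusted p = 2.95e-05), and Oasl2 was lower (-2.81). The class II chains H2-Aa (log2 difference -2.13 ± 0.37, adjusted p = 3.8e-05) and H2-Ab1 (log2 difference -1.97 ± 0.34, adjusted p = 4.06e-05) were lower in skin too (-2.03 and -1.88), and belong to a family of close copies in which reads could be split. Psmb9, a subunit of the immunoproteasome, was 5.05-fold higher (log2 difference 2.34 ± 0.40, adjusted p = 3.21e-05), with a log2 ratio of 0.95 in the separate tables and a log2 difference of 3.01 without Mus replicate 1. Ifi35 was higher by 0.75. Summed levels were 4814, 1882, 1933 and 3640 CPM over the Mus libraries, highest in replicate 1, and 1295 to 2640 CPM in Acomys; without Mus replicate 1 the number of higher genes went from 2 to 5. H2-Aa and H2-Ab1 were named after their values were seen.

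Lymphocyte transcripts were scarce in both species. In this list 7 of 22 tested members (31.8%) were higher in Acomys, 3 (13.6%) were lower and 12 did not pass. Cd3e, part of the T cell receptor complex, stood at 4.05, 11.4, 4.63 and 4.1 CPM in Acomys and 3.98, 1.28, 0.947 and 3.17 CPM in Mus (log2 difference 1.36 ± 0.46, adjusted p = 0.0119), with Acomys replicate 2 well above the rest (adjusted p = 0.0854 without Acomys replicate 2). Its partner Cd3d did not pass (0.16). Cd8a, the co-receptor of cytotoxic T cells, was at 5.34, 9.71, 10.5 and 8.88 CPM against 2.06, 1.6, 0.271 and 1.41 CPM (log2 difference 2.69 ± 0.39, adjusted p = 2.72e-06), and was higher in skin too (4.02). In the separate tables the log2 ratio was 1.28 for Cd8a. Thy1, which fibroblasts also carry, was 3.93-fold higher (log2 difference 1.97 ± 0.32, adjusted p = 1.83e-05), with 2.59 without Mus replicate 3 and 1.28 in the separate tables. Il2ra was higher (log2 difference 1.10 ± 0.39, adjusted p = 0.0175; adjusted p = 0.056 to 0.0627 without Acomys replicate 3 or Mus replicate 2 or 3) and the co-stimulator Cd28 lower (log2 difference -1.13 ± 0.35, adjusted p = 0.00712; adjusted p = 0.0556 without Mus replicate 1; -1.78 in the separate tables). Cd8a was named after its values were seen.

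Complement and coagulation genes included both higher and lower members. In this list 11 of 27 tested members (40.7%) were higher in Acomys, 7 (25.9%) were lower and 9 did not pass. The terminal component C6 stood at 30, 39.2, 39.4 and 42.4 CPM in Acomys and 4.81, 2.08, 2.3 and 2.64 CPM in Mus, 12.6-fold higher (log2 difference 3.65 ± 0.55, adjusted p = 6.9e-06). In skin the order was reversed, with means of 0.788 CPM in Acomys and 60.4 CPM in Mus, and the turn was 9.86 on the log2 scale (adjusted p = 6.13e-08). C2, which forms the convertase of the classical pathway, was 8.33-fold higher (log2 difference 3.06 ± 0.27, adjusted p = 2.57e-09), while the separate tables gave a log2 ratio of 1.08. The receptor C3ar1 was lower (log2 difference -1.27 ± 0.22, adjusted p = 2.83e-05) and so was Procr, the endothelial protein C receptor (log2 difference -1.30 ± 0.24, adjusted p = 4.58e-05). C3ar1 was lower in skin too (-2.07), and Procr did not differ there past the threshold (-0.48).

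Immediate early genes, which cells switch on within minutes of a stimulus, were the list with the lowest median after the hair follicle and stood at -1.82 (day 0: -0.20). Of these, 4 of 23 tested members (17.4%) were higher in Acomys, 16 (69.6%) were lower and 3 did not pass. Atf3, a stress transcription factor, stood at 13.2, 9.28, 9.88 and 13.9 CPM in Acomys and 184, 219, 117 and 113 CPM in Mus, 13.7-fold lower (log2 difference -3.77 ± 0.43, adjusted p = 2.38e-07). Nr4a1 was at 4.65, 1.17, 7.12 and 5.86 CPM against 109.9, 96, 49.4 and 65.8 CPM (log2 difference -4.07 ± 0.68, adjusted p = 2.77e-05), Egr1 was 7.37-fold lower (log2 difference -2.88 ± 0.60, adjusted p = 0.000286) and Jun 3.19-fold lower (log2 difference -1.67 ± 0.20, adjusted p = 3.07e-07). Fos was lower with overlap, at 53.7, 26.7, 117 and 54.3 CPM against 732, 208, 106 and 109 CPM (log2 difference -2.20 ± 0.91, adjusted p = 0.0385). Mus replicate 1 was far above its group and the call of Fos was lost without several libraries (adjusted p = 0.0779 to 0.25 without Acomys replicate 1, 2 or 4 or Mus replicate 1). Jun and Atf3 differed more in the wound than in skin, by -1.43 and -2.48 (adjusted p = 0.000881 and 0.00444). Over the list 11 members had a more negative difference at day 7 and none a more positive one, beside 18.9% and 17.3% of all genes. The heat shock gene Hspa1b ran the other way (log2 difference 1.34 ± 0.25, adjusted p = 7.34e-05), but in the separate tables of the 2 species its log2 ratio was -1.30. It has a near-identical copy, Hspa1a, which had no Mus count in the shared table and was left out as not measured. At day 7 Hspa1a held 1352 Acomys counts in the shared table and 2335 expected counts in the separate Mus table. Myc was higher (log2 difference 0.57 ± 0.22, adjusted p = 0.0254; adjusted p = 0.0608 to 0.128 without Acomys replicate 1 or Mus replicate 2, 3 or 4). Fos, Jun and Egr1 were named after their values were seen.

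Cell cycle genes had the largest share of higher members among the 31 lists. In all 22 of 38 tested members (57.9%) were higher in Acomys, 2 (5.26%) were lower and 14 did not pass, which is 57.9% higher against a background of 35.4%, with a median of 0.66 at day 7 and 0.14 in skin. Genes of mitosis were among them. Birc5 (survivin), of the chromosomal passenger complex, stood at 58.4, 58.7, 58.1 and 56.9 CPM in Acomys and 13.6, 17.1, 12.3 and 15.1 CPM in Mus, 4-fold higher (log2 difference 2.00 ± 0.16, adjusted p = 6.65e-10; 2.82 in the separate tables). The spindle assembly factor Tpx2 was 3.27-fold higher (log2 difference 1.71 ± 0.14, adjusted p = 8.97e-10), the checkpoint kinase Bub1 3.01-fold (log2 difference 1.59 ± 0.16, adjusted p = 1.94e-08) and cyclin B1 (Ccnb1) 1.81-fold (log2 difference 0.86 ± 0.19, adjusted p = 0.000363). Rrm2, which makes nucleotides for DNA synthesis, was 2.86-fold higher (log2 difference 1.52 ± 0.16, adjusted p = 2.96e-08). The most used proliferation markers did not pass: Mki67 stood at 365, 363, 278 and 354 CPM against 303, 331, 291 and 338 CPM (log2 difference 0.11 ± 0.14, adjusted p = 0.508), Pcna differed by -0.056, Top2a by 0.30 and Mcm2 by -0.12. Summed over 38 genes the level was 2052, 2424, 2228 and 2398 CPM in the Acomys libraries and 1676, 1805, 1647 and 1726 CPM in the Mus libraries, without overlap. Birc5 and Tpx2 were further apart in skin than in the wound (3.84 and 3.40 at day 0). Thymidylate synthase (Tyms) was 7.93-fold lower (log2 difference -2.99 ± 0.13, adjusted p = 2.3e-14) and lower still in skin (-4.04), and Cdc25c was lower (-1.02). The separate tables gave -3.88 for Tyms and -1.71 for Cdc25c. Bub1, Rrm2 and Ccnb1 were named after their values were seen.

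Several keratins of the wound edge were lower, to very different degrees. In the list of wound-edge keratinocytes, 3 of 25 tested members (12%) were higher in Acomys, 9 (36%) were lower and 13 did not pass. Krt6a, induced when keratinocytes are activated, was abundant in both species at 3720, 3114, 2541 and 3107 CPM in Acomys and 4840, 5782, 7909 and 4303 CPM in Mus, 1.83-fold lower (log2 difference -0.87 ± 0.28, adjusted p = 0.00908). Its usual partners were near absent from Acomys. Krt16 (GRCm38, chromosome 11, 100246091 to 100248902) stood at 2.47, 3.84, 2.76 and 1.76 CPM against 619, 782, 1058 and 553 CPM, and Krt17, its neighbour (100256217 to 100261029), at 2.27, 1.49, 1.42 and 1.27 CPM against 1024, 1047, 1261 and 817 CPM (log2 difference -9.32 ± 0.43, adjusted p = 2.2e-13). Krt17 was scarce in Acomys skin too (mean 1.88 CPM against 442 CPM in Mus), and the separate species tables gave log2 ratios of -8.50 for Krt17 and -7.27 for Krt16. Krt14, Krt16 and Krt17 are close in sequence, so that reads of one could be counted for another. Slpi, a protease inhibitor of wounded epithelium, was 5.97-fold higher (log2 difference 2.58 ± 0.46, adjusted p = 5.66e-05) and Krt75, a follicle keratin, 6.51-fold higher (log2 difference 2.70 ± 0.30, adjusted p = 8.33e-08).

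In the epidermal differentiation list 3 of 29 tested members (10.3%) were higher in Acomys, 10 (34.5%) were lower and 16 did not pass. Krt5, the basal partner of Krt14, was at 6.23, 7.04, 4.63 and 3.81 CPM in Acomys against 103, 93.1, 137 and 104 CPM in Mus (log2 difference -4.33 ± 0.23, adjusted p = 7.35e-13) and further apart in skin (-5.48), with a log2 ratio of -6.61 in the separate tables. Krt14 itself was 2.22-fold lower (log2 difference -1.15 ± 0.25, adjusted p = 0.000341). Krt1, of suprabasal cells, stood at 267, 82.1, 177 and 56.5 CPM against 1074, 1666, 2817 and 855 CPM (log2 difference -3.46 ± 0.43, adjusted p = 5.54e-07). Its partner Krt10 at 526, 255, 258 and 231 CPM against 207, 366, 596 and 156 CPM did not pass (log2 difference -0.062 ± 0.33, adjusted p = 0.874; -0.78 in the separate tables). Hornerin (Hrnr), a cornified layer protein with long repeats, stood at 855, 2590, 4114 and 525 CPM in Mus and 150.4, 115, 82.2 and 137 CPM in Acomys, 16.7-fold lower (log2 difference -4.06 ± 0.51, adjusted p = 7e-07; -3.45 without Mus replicate 3). Involucrin (Ivl) was 2.48-fold higher (log2 difference 1.31 ± 0.39, adjusted p = 0.00534) and Lce3a higher (log2 difference 1.30 ± 0.54, adjusted p = 0.0392; adjusted p = 0.051 to 0.0889 without Acomys replicate 1, 2 or 3 or Mus replicate 1, 2 or 4, and 0.208 by DESeq2). The summed level of the list was 10400, 7843, 6506 and 7090 CPM in Acomys and 11740, 18660, 26190 and 10780 CPM in Mus, where replicate 3, the muscle-poor library, was the highest. The part of these uneven levels in the keratin results was not tested. Krt14 was named after its values were seen.

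Transcripts of the growing hair shaft and inner root sheath were lower in Acomys wounds, but the result rested on 2 Mus libraries. In this list 1 of 32 tested members (3.12%) was higher in Acomys, 17 (53.1%) were lower and 14 did not pass, with a median of -3.18; in unwounded skin the same list had a median of 2.78. Krt25, an inner root sheath keratin, stood at 0.395, 0.427, 0.356 and 0.683 CPM in Acomys and 0.55, 89.4, 3.38 and 59.3 CPM in Mus, and trichohyalin (Tchh) at 1.09, 1.28, 0.712 and 0.878 CPM against 5.22, 189.6, 12 and 132 CPM. Krt71 followed the same order of libraries at 0.412, 149.5, 3.79 and 114 CPM in Mus. Replicates 2 and 4 of Mus thus held nearly all of the signal, and replicate 1 lay at the Acomys level for Krt25 and Krt71. The number of lower genes dropped from 17 to 5 when the fit used only the 8 day 7 libraries. That fit applied its own low-count filter, so part of this drop may be genes left out rather than calls lost. The number dropped to 8 without Mus replicate 2, and to 2 without Mus replicates 2 and 4, an alternative chosen after seeing the data. Without both libraries the log2 difference was -2.04 for Krt25 (adjusted p = 0.45), -1.40 for Krt71 (0.519) and -3.11 for Tchh (0.0669), and none of these passed. In skin the order was the reverse, with means of 86.2 CPM in Acomys and 0.05 CPM in Mus for Krt25. The Acomys skin libraries were uneven as well. Their SD was above their mean for Krt25 (144 CPM), Krt71 (121 against a mean of 83.4 CPM) and Tchh (162 against 108 CPM). Among regulators of the follicle the transcription factor Gata3 was 2.13-fold higher (log2 difference 1.09 ± 0.28, adjusted p = 0.00156), Dlx3 was lower (log2 difference -0.96 ± 0.36, adjusted p = 0.0226; adjusted p = 0.0528 to 0.0981 without Acomys replicate 2, 3 or 4 or Mus replicate 2 or 3, and 0.05 with only the 8 day 7 libraries), and Shh (-0.28), Edar (-0.31) and Lhx2 (-0.92) did not pass. Krt25, Krt71 and Tchh were named after their values were seen.

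In the list of sebaceous glands and lipid synthesis 1 of 23 tested members (4.35%) was higher in Acomys, 7 (30.4%) were lower and 15 did not pass: the fatty acid elongase Elovl6 (log2 difference -1.86 ± 0.24, adjusted p = 6.97e-07; log2 ratio -0.66 in the separate tables) was lower. The desaturase Scd1 was lower as well (log2 difference -1.79 ± 0.30, adjusted p = 2.17e-05), while Scd3 was 4.57-fold higher (log2 difference 2.19 ± 0.44, adjusted p = 0.000199; 3.25 in the separate tables). The desaturase genes Scd1 and Scd3 are close copies, so their counts are uncertain. In the adipocyte list 3 of 21 tested members were higher in Acomys, 9 (42.9%) were lower and 9 did not pass. Adiponectin (Adipoq), the hormone of fat cells, stood at 1.68, 0.853, 1.34 and 0.488 CPM in Acomys and 3.44, 2.72, 12.6 and 13.4 CPM in Mus (log2 difference -2.85 ± 0.78, adjusted p = 0.00317), far under its means in skin of 159 and 85.4 CPM. The fatty acid carrier Fabp4 was 4.93-fold lower (log2 difference -2.30 ± 0.26, adjusted p = 1.01e-07) with -2.30 in skin, and the lipid droplet protein Plin4 was lower (log2 difference -1.68 ± 0.40, adjusted p = 0.000965). The lipase Pnpla2 was 1.68-fold higher (log2 difference 0.75 ± 0.21, adjusted p = 0.00324). The count of 3 higher fat genes dropped to 1 without Mus replicate 1 or 4, or with only the day 7 libraries.

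Blood vessel genes were more often lower than higher. In this list 2 of 27 tested members (7.41%) were higher in Acomys, 15 (55.6%) were lower and 10 did not pass, with a median of -0.69 at day 7 and 0.017 in skin. Of the defining markers, Pecam1 (CD31) overlapped at 242, 244, 291 and 268 CPM in Acomys and 294, 236, 249 and 295 CPM in Mus (log2 difference -0.038 ± 0.11, adjusted p = 0.759), after being higher in Acomys skin (1.12), while VE-cadherin (Cdh5) stood at 69.6, 67.9, 73.9 and 86.2 CPM against 212, 177, 154 and 197 CPM, 2.48-fold lower (log2 difference -1.31 ± 0.16, adjusted p = 1.83e-07). The nitric oxide synthase of endothelium, Nos3, was lower (log2 difference -1.50 ± 0.21, adjusted p = 1.47e-06), as were the VEGF receptors Flt1 (log2 difference -0.90 ± 0.19, adjusted p = 0.000286) and Kdr (log2 difference -0.58 ± 0.17, adjusted p = 0.00485). Across the list 3 members had a more positive and 15 a more negative difference at day 7 than in unwounded skin. Over all genes these shares were 17.3% and 18.9%. The 2 higher members were Lyve1, given above, and podoplanin (Pdpn, log2 difference 1.71 ± 0.25, adjusted p = 4.59e-06), which lymphatic vessels share with macrophages or fibroblasts; the lymphatic markers Prox1 (-0.041) and Flt4 (0.10) did not pass. Flt1 and Kdr were named after their values were seen.

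Skeletal muscle genes were listed as embryonic and as adult. Skin of the back lies on a thin sheet of striated muscle, the panniculus carnosus, and regrowing fibres first express embryonic forms of myosin, actin and the acetylcholine receptor. Among genes of embryonic muscle and myogenesis 12 of 28 tested members (42.9%) were higher in Acomys, 5 (17.9%) were lower and 11 did not pass. Embryonic myosin heavy chain (Myh3) stood at 115, 79.2, 58.1 and 126 CPM in Acomys and 10.2, 10.4, 0.271 and 7.22 CPM in Mus, 13.6-fold higher without overlap (log2 difference 3.77 ± 0.56, adjusted p = 6.75e-06). In skin its means were 3.38 and 6.76 CPM, and the shift between the days was 4.77 (adjusted p = 0.000328). Cardiac actin (Actc1), the actin of newly formed fibres, was at 60.2, 54.7, 39.3 and 67.2 CPM against 4.81, 6.73, 0.541 and 6.34 CPM (log2 difference 3.62 ± 0.41, adjusted p = 1.53e-07). The fetal gamma subunit of the acetylcholine receptor, Chrng, was at 9.19, 7.36, 4.72 and 8.39 CPM against 0.412, 0.481, 0 and 0.352 CPM (log2 difference 4.55 ± 0.43, adjusted p = 6.27e-09). The delta subunit Chrnd was at 22.4, 9.81, 11.1 and 12.8 CPM against 0.55, 0.641, 0.135 and 0.528 CPM (log2 difference 4.91 ± 0.43, adjusted p = 1.65e-09). In skin the log2 differences were 2.36 for Actc1, 3.50 for Chrng and 5.17 for Chrnd, all past the threshold. For Actc1, Chrng and Chrnd the difference between the days did not pass (adjusted p = 0.354, 0.519 and 0.84). Mus replicate 3, the library nearly without muscle transcripts, was the lowest for each of these genes. Without it the log2 difference was 3.34 for Myh3 (adjusted p = 4.4e-06), 3.22 for Actc1 (4.99e-08), 4.10 for Chrng (2.86e-08) and 4.58 for Chrnd (2.36e-08), and 9 members of the list were higher in place of 12. The separate tables gave log2 ratios of 2.90 for Myh3, 2.64 for Myf5, -7.58 for Myh8 and -6.73 for Myh1. Among the regulators of myoblasts, Myf5 had 50 counts in Acomys and 2 in Mus (ratio 16.2, 95% counting interval 4.26 to 138, exact). Myod1 did not pass (log2 difference 0.63 ± 0.60, adjusted p = 0.357), and myogenin (Myog) passed narrowly (log2 difference 1.11 ± 0.49, adjusted p = 0.0478; adjusted p = 0.0603 to 0.145 without Acomys replicate 1, 2 or 4 or Mus replicate 3 or 4, and 0.0696 with only the 8 day 7 libraries). Mef2c was higher by 0.54 (adjusted p = 0.0504 without Acomys replicate 4) and the satellite cell gene Megf10 by 1.44. Lower in Acomys were Six4 (log2 difference -1.84 ± 0.23, adjusted p = 3.29e-07), Dmrt2 (log2 difference -2.22 ± 0.32, adjusted p = 2.64e-06) and the perinatal myosin Myh8, with 1 count in Acomys and 298 in Mus (ratio 459, interval 81.8 to 18200). Myh8 was lower in skin too (-8.30).

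In the adult muscle list 7 of 38 tested members (18.4%) were higher in Acomys, 5 (13.2%) were lower and 26 did not pass. The 7 higher members were the slow fibre genes Tnni1, Tnnc1, Tnnt1, Myl3 and Myh7, with Actn2 of the Z-disc and Cav3 of the muscle membrane. Slow troponin I (Tnni1) stood at 77.4, 30.6, 33.6 and 54.1 CPM in Acomys and 4.81, 4.01, 0.135 and 2.82 CPM in Mus (log2 difference 4.06 ± 0.71, adjusted p = 5.01e-05). Slow troponin C (Tnnc1) was at 29.8, 19.8, 21 and 28.2 CPM against 2.61, 2.24, 0.135 and 1.41 CPM (log2 difference 3.95 ± 0.69, adjusted p = 4.91e-05). Slow myosin (Myh7) was at 36.5, 5.97, 9.53 and 16.1 CPM against 0, 3.05, 0.812 and 0.528 CPM (log2 difference 3.98 ± 1.42, adjusted p = 0.018; adjusted p = 0.0508 to 0.0602 without Acomys replicate 1 or Mus replicate 1; 5.22 without Mus replicate 2). Actn2 was at 157, 55.2, 57.1 and 95.3 CPM against 19.6, 37.3, 0.135 and 12.3 CPM (log2 difference 2.40 ± 0.79, adjusted p = 0.0114; 3.10 without Mus replicate 2). In skin their log2 differences were 7.65 (Tnni1), 8.38 (Tnnc1) and 9.62 (Myh7), and for these genes the difference between the days did not pass (adjusted p = 0.0954, 0.0536 and 0.128). Without Mus replicate 3 the log2 differences were 3.63 for Tnni1 (adjusted p = 0.000219), 3.53 for Tnnc1 (0.000288) and 1.98 for Actn2 (0.0181). Of the fast isoforms, Myh1 was at 6.92, 0.96, 1.87 and 2.93 CPM against 118, 181, 1.35 and 114 CPM (log2 difference -5.02 ± 1.29, adjusted p = 0.00194; -5.73 without Acomys replicate 1). Myh2 had 3 counts in Acomys and 681 in Mus (ratio 350, interval 119 to 1700). In skin their log2 differences were -4.97 and -10.24. Myosin heavy chain genes are alike in sequence, so reads could be split among them. Skeletal actin (Acta1) overlapped at 589, 472, 521 and 548 CPM and 339, 563, 6.5 and 346 CPM (log2 difference 0.76 ± 1.06, adjusted p = 0.532). Creatine kinase (Ckm) was at 68.1, 22.2, 18.3 and 27.5 CPM against 251, 299, 2.44 and 245 CPM and did not pass (log2 difference -2.55 ± 1.27, adjusted p = 0.0811); it did pass as lower without Mus replicate 3 (adjusted p = 0.0341), by DESeq2 (0.0457) and with only the 8 day 7 libraries (0.0488). Leaving out that library took the number of lower adult muscle genes from 5 to 9, whereas leaving out Mus replicate 1 or 2, or Acomys replicate 2, 3 or 4, took it to 3, and DESeq2 or the day 7 libraries alone gave 8. Among the lower genes was Eno3, the muscle enolase (log2 difference -2.13 ± 0.84, adjusted p = 0.0298; adjusted p = 0.0562 to 0.077 without Acomys replicate 2, 3 or 4 or Mus replicate 1 or 2). Tpm3, which other cells also make, was lower (log2 difference -0.56 ± 0.12, adjusted p = 0.000281). All genes of the last 2 paragraphs except Myh3, Acta1, Ckm, Eno3, Tpm3, Megf10, Mef2c, Dmrt2 and Six4 were named after their values were seen.

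**Figure D4:**
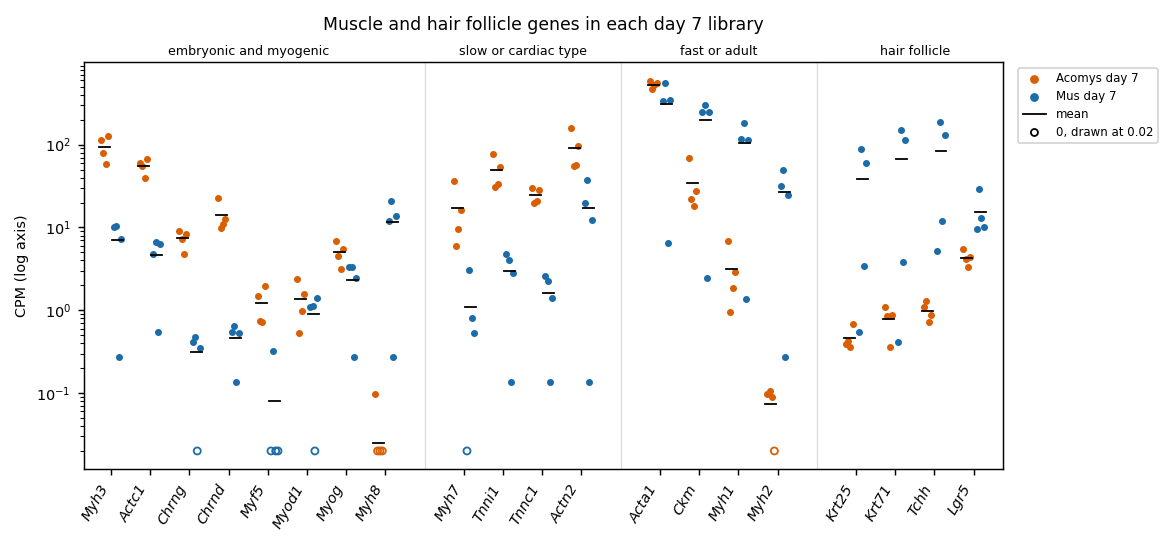
CPM (log axis) of muscle and hair follicle genes in each day 7 library; bars are means and open circles are libraries at 0. Myh3, Chrng and Chrnd lie higher in all 4 Acomys libraries, Myh2 and Myh8 lie lower, and 1 Mus library is low in most muscle genes while 2 others carry the follicle genes.

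Nerve, pigment, positional and metabolic genes make up the remaining lists. Among Schwann cell genes 6 of 18 tested members (33.3%) were higher in Acomys, 7 (38.9%) were lower and 5 did not pass: Pmp22 (log2 difference 1.59 ± 0.12, adjusted p = 2.43e-10) and S100b (log2 difference 1.66 ± 0.31, adjusted p = 6.55e-05) were higher, and the myelin regulator Egr2 (log2 difference -1.87 ± 0.29, adjusted p = 6.15e-06) and periaxin (Prx, log2 difference -1.54 ± 0.29, adjusted p = 7.66e-05) were lower. Sox10, a transcription factor of Schwann cells, did not pass (-1.17). In the melanocyte list none of 9 tested members (0%) was higher in Acomys, 6 (66.7%) were lower and 3 did not pass. The lower genes included tyrosinase (Tyr) at 7.02, 6.08, 5.08 and 8.49 CPM against 24.5, 27.1, 27.9 and 23.9 CPM (log2 difference -1.95 ± 0.17, adjusted p = 1.38e-09; log2 ratio -0.45 in the separate tables) and Kit (log2 difference -0.82 ± 0.18, adjusted p = 0.00037). Among Hox and other positional genes 4 of 29 tested members (13.8%) were higher in Acomys, 16 (55.2%) were lower and 9 did not pass; Meox1 stood at 1.19, 1.17, 1.87 and 1.17 CPM in Acomys against 20.7, 11.1, 13.5 and 23.1 CPM in Mus (log2 difference -3.64 ± 0.26, adjusted p = 9.74e-11) and Tbx18 was lower (log2 difference -2.61 ± 0.23, adjusted p = 2.75e-09), while Hoxa5 and Hoxc8 were higher by 0.82 and 0.71. Among glycolysis and hypoxia genes 4 of 25 tested members (16%) were higher in Acomys, 9 (36%) were lower and 12 did not pass. Pyruvate kinase (Pkm) was 3.72-fold lower (log2 difference -1.90 ± 0.13, adjusted p = 4.29e-11) and lower in skin too (-1.84), Pfkfb4 was lower (log2 difference -1.72 ± 0.17, adjusted p = 1.63e-08), and the hypoxia-induced peptide adrenomedullin (Adm, log2 difference 1.51 ± 0.33, adjusted p = 0.000437) and Pdk1 (log2 difference 0.68 ± 0.15, adjusted p = 0.000327) were higher. Of 12 red blood cell genes only 3 had a row with counts in both species. Of these 3, 1 (33.3%) was higher in Acomys and 2 (66.7%) were lower, with a median of -1.32 at day 7 and 6.15 in skin. Alas2, the haem synthase of red cells, was 7.04-fold lower at 5.04, 2.35, 6.23 and 8.88 CPM against 63.9, 28.4, 21.8 and 45.6 CPM (log2 difference -2.82 ± 0.36, adjusted p = 6.55e-07), and Car2, which other cells also make, was lower (log2 difference -1.32 ± 0.45, adjusted p = 0.0138; adjusted p = 0.0826 without Mus replicate 3). In the skin identity list, none of 11 tested members (0%) was higher in Acomys, 7 (63.6%) were lower and 4 did not pass.

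**Figure D5:**
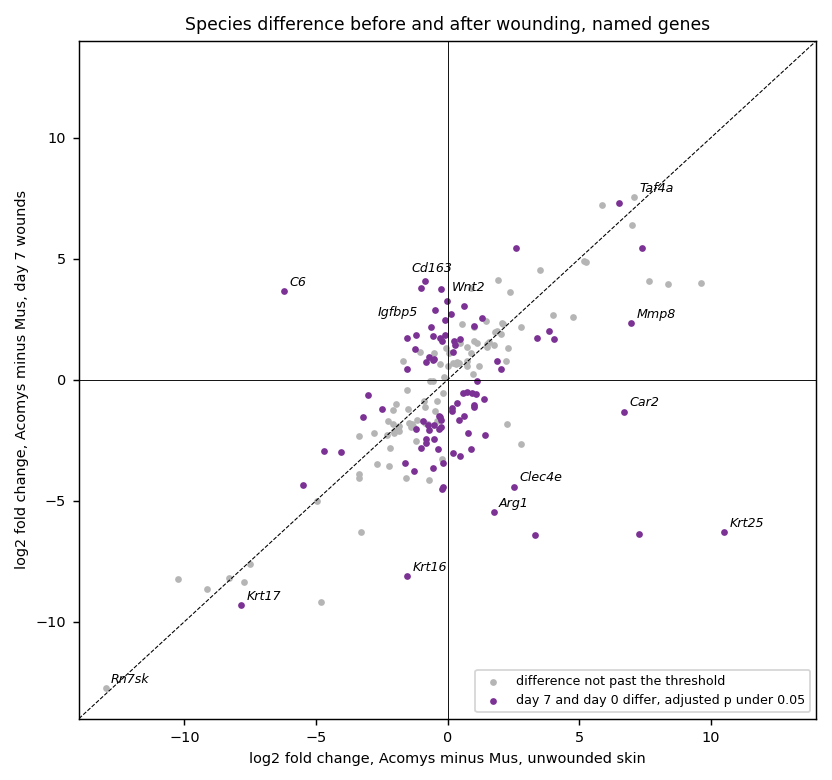
Species difference of each named gene in unwounded skin (horizontal) and in day 7 wounds (vertical), on the log2 scale; the dashed line marks equal values, and purple points passed the test of the difference between the days. Rn7sk and Taf4a lie near the line, while Arg1, Krt25 and C6 lie on opposite sides of 0 on the 2 days.

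The named genes were last set beside unwounded skin. Of 189 named genes, 90 had a species difference at day 7 that differed from the one in skin. Over all genes 17.3% had a more positive and 18.9% a more negative difference. Many genes were named for a wide difference at day 7, which enters this test, so the 90 are not a fair sample of all genes. Genes that passed in the wound and not in skin, with a difference between the days that passed as well, included Tnf, Nos2, Csf3r, Col11a1 and Meox1 on the lower side, with skin values of -0.19, -0.21, 0.20, 0.47 and -0.55, and Igfbp5, Lyve1 and Wnt2 on the higher side, with -0.47, -0.02 and -0.26. Rn7sk, Taf4a, Lyz2 and Fabp4 passed on both days in the same direction, and for them the difference between the days did not pass. Arg1, C6, Cd163, Mrc1, Col12a1 and Tgfb1 changed sign between skin and wound, each past the threshold on both days.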

How the data were processed

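RNA-seq libraries of Acomys cahirinus and Mus musculus dorsal skin were used as deposited. The authors' shared table holds whole-number counts per gene symbol for 23 libraries (14548 rows), and how it was made is not given in the sources used here. The authors also deposited a table of expected counts for each species, made apart; these served only as log2 ratios of mean CPM with a pseudocount of 0.1 CPM, with no test. Per the submitters' processing notes, the tools include FastQC 0.11.4, Trimmomatic 0.32, Bowtie2 and RSEM 1.2.28, and the build mm9; their roles are not stated. One library, a pooled and normalized one, was not used here. Day 14 libraries entered the fit to share the estimate of spread, and the scaling and the choice of rows used them too.

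The 34 spike-in rows were removed (1.48 to 1.84% of Acomys and 0.81 to 0.836% of Mus day 7 counts), and rows with no count in all libraries of one species were left out as not measured there. The 14388 remaining genes were fitted in R 4.3.3 with edgeR 4.0.16 (quasi-likelihood test, robust, TMM scaling, 6 groups, Benjamini-Hochberg adjusted p under 0.05) for day 7, day 0 and the difference between the days. CPM used the same scaling. The scripts were checked on simulated counts. No pair of day 7 replicates agreed within sampling noise (chi-square over degrees of freedom 8.86 to 36.8). Intervals on ratios of low counts cover counting error only. The alternatives were RLE size factors, a fit with no low-count filter, DESeq2 1.42.0, a replicate block, a minimum of 2-fold, small structural RNAs left out, day 7 libraries alone, at least 10 counts in each species, the separate tables and each library left out.

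The members and the 31 gene lists (880 entries, 774 genes tested, 79 entries not in the shared table) were chosen with earlier results of these data known. Genes were named by a rule: 32 genes given by name, the 6 widest differences each way, up to 2 list members each way with at least 10 counts in each day 7 library, and members with no count in one species. Another 47, and members given only by a log2 difference, were named after their values were seen. The few coordinates printed are from GENCODE on GRCm38.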

Additional observations from a re-analysis of the deposited data

Results flagged for a closer look

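In 34 of 440 groups of 4 libraries (each named gene in each species, and each list's summed level), 1 library lay apart from the other 3 by more than Dixon's 95% critical value of 0.829. Chance flags about 1 in 20 groups. Acomys replicate 1 stood apart in the CPM of Col1a1 (10460), Krt10 (526), Taf4a (4643), Cyr61 (64), Dlx3 (3.26), Myc (31.8), Myh8 (0.0988), Jun (104) and Ccnb1 (54). Acomys replicate 2 stood apart in the CPM of Mmp9 (308), Cd3e (11.4) and Nos2 (4.8). Acomys replicate 3 stood apart in the CPM of Mki67 (278), Tagln (318) and Meox1 (1.87). Acomys replicate 4 stood apart in the CPM of Pcolce (79) and Myh2 (0). Mus replicate 1 stood apart in the CPM of Cyr61 (424), Bmp1 (532), Ltbp2 (174), Myc (22.4) and Fos (732). Mus replicate 2 stood apart in the CPM of Tgfb3 (76.5), Tagln (119.9), Lgr5 (29.3), Six4 (19.7), Myf5 (0.321), Col1a2 (21810) and Axin2 (16.2). Mus replicate 3 stood apart in the CPM of Thy1 (91.8), Car2 (74.7) and Hoxc8 (6.36). Mus replicate 4 stood apart in the CPM of Adamts3 (19.9). Acomys replicate 1 stood apart as well in the summed level of the adipocyte list, at 482.5 CPM where the other 3 libraries lay between 315.3 and 338 CPM.

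Of 189 named genes, 90 had a species difference at day 7 that differed from the one at day 0 by edgeR's test of that change. Over all genes the shares were 17.3% more positive and 18.9% more negative, and many named genes were picked by their day 7 values. The value given with each gene is the log2 difference at day 7 minus the log2 difference at day 0. Genes past the threshold in the wound and not in skin were Myh3 (4.77), Wnt2 (4.00), Igfbp5 (3.33), Lyve1 (3.28), Mmp9 (3.06), Scd3 (2.85), Krt75 (2.57), Fgf2 (2.57), C2 (2.45), Lef1 (2.01), Il1f9 (1.95), Loxl4 (1.78), Pmp22 (1.35), Id3 (1.23), Megf10 (1.17), Bmp7 (0.98), Cdh2 (-1.19), Prx (-1.25), Acvr2a (-1.31), Dlx3 (-1.32), Egr2 (-1.35), Jun (-1.43), Cdh5 (-1.49), Fzd5 (-1.69), Adam12 (-1.70), Plin4 (-2.12), Cd28 (-2.13), Egr1 (-2.52), Meox1 (-3.08), Csf3r (-3.23), Oas1a (-3.25), Col11a1 (-3.62), Spp1 (-3.69), Adipoq (-3.74), Tnf (-4.22), Nos2 (-4.29) and Clec4e (-6.93). Genes past the threshold on both days with opposite signs were C6 (9.86), Cd163 (4.93), Pdpn (3.25), Mrc1 (2.51), Nkd1 (2.36), Axin2 (1.62), Hoxc8 (1.52), Ccnb1 (1.39), Hoxa5 (1.37), Wnt5a (-1.10), Tgfb1 (-1.25), Kdr (-1.65), Col12a1 (-2.04), Nos3 (-2.13), Kit (-2.18), Dmrt2 (-2.98), Arg1 (-7.21), Car2 (-8.01), Tchh (-9.71), Krt71 (-13.63) and Krt25 (-16.80). Genes past the threshold on both days in the same direction and further apart in the wound were Xpnpep2 (2.85), Tcf7 (1.24), Btc (1.23), Pura (0.82), Pfkfb4 (-0.76), Egfr (-0.84), Elovl6 (-1.13), Igf1r (-1.36), Krt17 (-1.47), Ogn (-1.62), Tbx18 (-1.79), Alas2 (-1.80), Krt1 (-1.84), Itgam (-1.92), Atf3 (-2.48) and Krt16 (-6.58). Genes past the threshold on both days in the same direction and further apart in skin were Lox (2.42), Cxcr2 (1.72), Pcolce (1.69), Col1a2 (1.30), Krt5 (1.14), Tyms (1.06), Pnpla2 (-1.12), Tpx2 (-1.69), Birc5 (-1.85), Tcfl5 (-1.93), S100b (-2.36) and Mmp8 (-4.62). Genes past the threshold in skin and not in the wound were Fn1 (2.00), Pecam1 (-1.16), Sfrp2 (-1.49) and Timp1 (-1.58). Of the genes with opposite signs, Krt25, Krt71 and Tchh had uneven libraries in Mus wounds and in Acomys skin, as given with the follicle genes.

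The shared table has 125 rows with no count in any Mus library, and 124 of these held at least 10 counts over the 4 Acomys day 7 libraries (109477 counts in all at day 7). They were left out of every comparison as not measured in Mus. The separate Mus table held 125396 expected counts at day 7 over the same symbols, with at least 10 counts for 47 of them. Among these were the cell cycle inhibitor Cdkn1a (5101 expected counts in the Mus table, 3437 Acomys counts in the shared table), the splicing factor Srsf3 (6557 and 6390), Ptgfrn (12036 and 13002), corneodesmosin (Cdsn, 9635 and 3818) and Marcksl1 (12394 and 3313). These 5 genes were chosen after their values were seen, and the cause of the missing counts was not tested.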

How the results depend on the processing

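The counts of genes past the threshold moved by over 1.5 times under 1 alternative, a test against a minimum of 2-fold in place of any change. It left 3389 genes at day 7 in place of 10159 (1774 higher and 1615 lower in Acomys), 2903 in unwounded skin in place of 9400 (1665 and 1238), and 1062 with a difference between the days in place of 5209 (427 more positive and 635 more negative). Under the other alternatives the day 7 total lay between 9160 (without Mus replicates 2 and 4 together) and 10223 (DESeq2), and leaving out each day 7 library in turn gave 9765 to 10069. The share of called genes that were higher lay between 49.4% and 52.3%, and the median log2 difference over all genes between -0.0227 and 0.0315. All the scalings used assume that most genes do not differ, so these ranges do not test that assumption. In the fit of all libraries the filter on low counts removed no gene, so fitting without it gave the same values. Of 189 named genes, 176 passed, and 20 of these lost the call without 1 library, as given with the genes whose calls rest on 1 library. DESeq2 took the call from 2 named genes, gave it to 2 and returned no adjusted p for Tnnc1. With the day 7 libraries alone 176 named genes kept their side of the threshold, 5 lost the call and 3 gained it. The rest were removed by the low-count filter of that fit, and its list counts also cover only the genes it kept. A minimum of 2-fold took 52, and leaving out Mus replicates 2 and 4 together, chosen after seeing the data, took 16. In the separate tables of the species, where no test was run, Hspa1b had a log2 ratio of -1.30 in place of 1.34, and 26 other named genes kept their direction and moved in size by more than 2 SE. The cause was not tested. Of 62 counts of list members, 48 moved under at least 1 alternative, 4 of them with only the day 7 libraries, 1 with DESeq2 and none with other size factors. Levels under about 1 CPM rest on fewer than 10 counts a library.

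The titles give both species replicate numbers, but same-numbered libraries of 2 species cannot share an animal, and the residuals of same-numbered day 7 libraries correlated by -0.105, -0.245, 0.0293 and 0.0369. With a replicate block, 10134 genes passed at day 7 (5069 higher, 5065 lower), 9345 at day 0 and 5195 for the difference between the days. Under the block 186 of 189 named genes kept their side of the threshold, and Tnc (adjusted p = 0.0533), Il1b (0.0548) and Fos (0.121) lost it. Within a species the same numbers recur at day 0 and day 7, and whether they mark the same animal is not stated. The block tied the numbers across the species too, so it cannot test a pairing within a species.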

Other observations

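Several members of the same lists that the text above gives only by count differed by a wide margin. They were chosen after their values were seen. In the complement list C4b, a component of the classical pathway, had a mean of 1101 CPM in Acomys and 230.2 CPM in Mus (log2 difference 2.26 ± 0.40, adjusted p = 4.77e-05), and the alternative pathway protease Cfb had 388 and 70.7 CPM (2.45 ± 0.45, adjusted p = 7.71e-05). Among macrophage genes Mertk, a receptor for the uptake of dying cells, was at 144 CPM against 39.4 CPM (1.87 ± 0.14, adjusted p = 2.21e-10). The high-affinity Fc receptor Fcgr1 was at 1.19 CPM against 31.7 CPM (-4.70 ± 0.43, adjusted p = 5.25e-09), with 0.28 in skin, and Csf1, the growth factor of macrophages, was at 31.5 CPM against 139 CPM (-2.14 ± 0.16, adjusted p = 1.47e-10). Zfp36, which shortens the life of cytokine messages, was lower at 15.7 CPM against 157 CPM (-3.32 ± 0.40, adjusted p = 3.8e-07).

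In the matrix lists decorin (Dcn), a proteoglycan of collagen fibrils, had a mean of 711 CPM in Acomys and 2603 CPM in Mus (-1.87 ± 0.17, adjusted p = 3.31e-09), and asporin (Aspn) was lower (log2 difference -2.07 ± 0.21, adjusted p = 2.64e-08). Of the epidermal genes, Krt15, a keratin of basal and follicle stem cells, was lower (-3.83 ± 0.39, adjusted p = 3.7e-08), and so was loricrin (Lor), the main protein of the cornified envelope (-3.04 ± 0.40, adjusted p = 1.47e-06). The lymphatic growth factor Vegfc was higher (1.73 ± 0.21, adjusted p = 2.05e-07).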
